A study of Homo sapiens with 12 samples.

Results

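The HSP70 genes followed here are HSPA1A, HSPA1B, HSPA6, HSPA8, HSPA4, HSPA4L, HSPA13, HSPA14, HSPA2 and HSPA1L, taken by symbol from the table of protein-coding genes. These 10 symbols stood for 11 gene identifiers among 19771, because HSPA14 was listed under ENSG00000187522 and ENSG00000284024. A mean of at least 1 FPKM (fragments scaled to transcript length and library size) over the 12 libraries was reached by 9 of the 11, and by 10925 protein-coding genes in all. HSPA6 and HSPA1L stayed below it. Each of those 9 also had a mean above 1 FPKM in each of the 4 groups. The family was selected on its gene FPKM in these libraries, with the differences between all 4 groups already known, as a contrast of stress-inducible with constitutive genes. Levels and differences of the members are therefore given as a description, and no test of them is used as support.

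RNA was sequenced from TE-1, a human esophageal cancer line, by its label, that stands for a single tumour and has no second line beside it here. Cells grown in DMEM with fetal bovine serum were transfected with a vector and collected after 48 h, with 3 libraries in each of 4 groups. OE_IFI6 carried a vector that overexpresses IFI6, an interferon-induced gene, and OE_control its control vector. sh_IFI6 carried an interference vector against IFI6, and sh_control the control of that vector. All groups were transfected, and no group of untransfected cells was analysed here. Neither the promoter that drives IFI6, the cargo of the control vectors nor the number of hairpins is given in the labels. Whether the 3 libraries of a group were separate cultures is not stated in the labels, so every p-value here reflects the spread among these libraries alone, which may be technical.

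IFI6 followed its labels. It stood at 308.7, 268.4 and 358.2 FPKM in OE_IFI6 against 27.34, 17.91 and 28.82 in OE_control, a ratio of means of 12.6. It stood at 15.14, 13.87 and 14.72 in sh_IFI6 against 24.89, 24.14 and 21.17 in sh_control, which is 62.3% of that control. No library of either vector group overlapped its control, and the exact two-sided permutation p was 0.1 for both, the smallest that 3 against 3 allows. Of 11 epithelial and squamous markers, KRT8 (706.3 to 1157 FPKM) and KRT18 (355.0 to 543.3 FPKM) were abundant. EPCAM, SOX2, KRT5 and KRT6A were listed at 0 in all 12 libraries, and CDH1, TP63, KRT14 and KRT19 stayed under 1 FPKM, so markers that define squamous cells were absent or near 0. Whether the cells were the labelled line was not tested. KRT17 had a mean of 3.65 FPKM in OE_control and 0.692 to 0.968 in the other groups. The summed level of 7 fibroblast markers was 6.92 to 9.69 FPKM, that of 6 immune markers 1.5 to 3.15 and that of 4 endothelial markers 0.0222 to 0.131. The immune sum was 2.45 to 3.15 in OE_control, 1.5 to 1.9 in OE_IFI6, 1.79 to 2.08 in sh_control and 1.79 to 3.14 in sh_IFI6, and its part in the results was not tested. Summed FPKM was 325877 to 357145 per library. On the first principal component of all genes, OE_control lay at -30.6 to -22.2 and the other 9 libraries at 5.9 to 11.3, and every comparison that uses OE_control carries this.

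HSP70 proteins are ATP-driven chaperones that bind short hydrophobic stretches of unfolded or newly made proteins and release them when ADP is exchanged for ATP. J-domain proteins (the DNAJ genes) deliver clients and trigger ATP hydrolysis, and nucleotide exchange factors (the BAG proteins, and the HSP110 proteins HSPH1, HSPA4 and HSPA4L) reset the cycle. HSPA8 (HSC70) is the constitutive form of most cells, HSPA1A and HSPA1B encode the stress-inducible form, and HSPA6 is a strictly inducible form. The inducible genes are textbook targets of the transcription factor HSF1, which binds repeats of the unit nGAAn in their promoters. HSPA2 and HSPA1L are best known from testis, HSPA14 from ribosomes, and HSPA13 from microsomes, so the name cytosolic fits HSPA13 least. RNA tables hold no measure of where the proteins are.

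The promoters of the 4 members whose contrast is described first are printed because they hold exact pairs of this unit in different numbers. RefSeq (build GRCh38.p14) gave a window of 300 bases, from 250 before to 50 after the start site, for 9 of the 10 symbols, all but HSPA14. Capitals mark matches to GAANNTTC or TTCNNGAA, which are the pairs of facing units and read the same on both strands. Overlapping matches run together in the capitals.
HSPA1A (chr6:31815293-31815592, plus strand): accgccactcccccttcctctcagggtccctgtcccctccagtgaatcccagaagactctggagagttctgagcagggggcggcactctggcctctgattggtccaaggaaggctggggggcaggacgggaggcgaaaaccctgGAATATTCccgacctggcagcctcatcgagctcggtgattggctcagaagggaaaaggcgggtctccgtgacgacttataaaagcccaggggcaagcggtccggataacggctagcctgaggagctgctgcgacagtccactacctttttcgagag
HSPA1B (chr6:31827488-31827787, plus strand): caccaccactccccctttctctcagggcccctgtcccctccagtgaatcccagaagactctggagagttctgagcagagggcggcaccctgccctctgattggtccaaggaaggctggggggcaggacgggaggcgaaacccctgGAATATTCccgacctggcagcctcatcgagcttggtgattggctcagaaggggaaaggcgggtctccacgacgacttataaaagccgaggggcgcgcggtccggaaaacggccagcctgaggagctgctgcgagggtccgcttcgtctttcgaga
HSPA6 (chr1:161524290-161524589, plus strand): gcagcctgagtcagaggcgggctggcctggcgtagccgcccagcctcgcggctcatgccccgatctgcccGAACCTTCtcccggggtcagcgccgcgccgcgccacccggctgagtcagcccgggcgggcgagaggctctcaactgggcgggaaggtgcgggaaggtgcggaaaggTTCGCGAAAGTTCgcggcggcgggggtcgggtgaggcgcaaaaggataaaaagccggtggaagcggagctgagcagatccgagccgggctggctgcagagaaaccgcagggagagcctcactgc
HSPA8 (chr11:123062087-123062386, minus strand): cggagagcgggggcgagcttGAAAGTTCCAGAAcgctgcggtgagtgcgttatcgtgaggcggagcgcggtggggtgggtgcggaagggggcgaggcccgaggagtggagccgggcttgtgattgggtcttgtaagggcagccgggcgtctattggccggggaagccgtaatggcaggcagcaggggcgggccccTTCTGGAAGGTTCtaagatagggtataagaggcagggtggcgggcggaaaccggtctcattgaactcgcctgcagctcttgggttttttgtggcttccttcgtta

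HSPA1A and HSPA1B each held 1 pair of units, at -106 and -105 from the start site, and a TATAAA at -30 and -29. Their windows were identical in 277 of 301 aligned columns (92.0%). HSPA8 held 2 runs of 3 units (a pair extended by one more unit of the alternate direction after the same gap; both strands searched), at -230 and -55, and HSPA6 held 1 run of 3, at -74, and a separate pair at -180. Pairs of either kind were in 13.5% of 35116 RefSeq windows of this length, and runs of 3 in 0.49%. HSPA1L, on the opposite strand, shares 241 bases of its window with HSPA1A, including the same pair, and the start sites of those 2 genes lie 260 bases apart. HSPA4L held 1 pair, in 1 of its 3 windows, and these letters were not found in the windows of HSPA2, HSPA4 and HSPA13. Only exact letters and gaps were searched, so units that depart from them were not counted, and the numbers do not rank the promoters. A match is a stretch of letters and not a measured binding site.

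Coordinates below are those of the deposited tables. The sources used here name no build, but the bounds lie at or near those of GENCODE release 29 on GRCh38. The inducible pair HSPA1A (chromosome 6, 31815464 to 31817946) and HSPA1B (chromosome 6, 31827738 to 31830254) are neighbouring copies in the major histocompatibility complex. HSPA1A stood at 83.2, 138.8 and 181.2 FPKM in OE_control. In OE_IFI6 it stood at 5.69, 8.84 and 8.73. Its values were 9.58, 12.27 and 14.44 in sh_control and 13.21, 11.93 and 10.08 in sh_IFI6. OE_control was above all 9 other libraries, OE_IFI6 was below all 9 others, and the short hairpin groups overlapped. For this and the members below, how many of all genes set a group apart from the other 9 libraries was not counted. The mean of HSPA1A was thus 134.4 ± 49.2 FPKM (SD, n = 3) in OE_control and 7.75 ± 1.79 in OE_IFI6, 17.3-fold apart. OE_control was also 11.1-fold above sh_control, whose mean was 12.1 ± 2.44. In bulk RNA, fewer expressing cells and less RNA per cell cannot be told apart.

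HSPA1B, which encodes nearly the same protein, had 95.6, 156.3 and 205.0 FPKM in OE_control and 12.04, 10.61 and 10.61 in OE_IFI6. It had 11.49, 15.42 and 16.68 in sh_control and 15.5, 14.39 and 12.23 in sh_IFI6. Again OE_control lay above all 9 others, and the remaining groups ran from 10.61 to 16.68. OE_control was 13.7-fold above OE_IFI6 and 10.5-fold above sh_control by the means. The reads of this pair cannot be assigned with certainty. The HSPA1B transcript was 88.4% identical to that of HSPA1A in GENCODE 29, and 68.8% of its stretches of 100 bases also occur in HSPA1A. The sources used here do not say how the authors' counting divided such reads. The ratio of HSPA1B to HSPA1A was 1.13 to 1.26 in 11 libraries and 2.12 in OE_IFI6 library 1. An assembled transcript in the interval between the genes had means of 0.188 to 0.308 FPKM, with 0.206 in OE_control.

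HSPA6 (chromosome 1, 161524540 to 161526894), the third inducible gene, was near the floor of the data. It had 0.5, 0.64 and 0.55 FPKM in OE_control, 0.247, 0.19 and 0.396 in OE_IFI6, 0.342, 0.278 and 0.43 in sh_control and 0.292, 0.594 and 0.155 in sh_IFI6. OE_control and OE_IFI6 did not overlap, with a ratio of means of 2.03, but sh_IFI6 library 2 lay within the OE_control range. At such levels the counting error is largest, and the depth per library is unknown. How many genes this low separate between groups was not counted.

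**Figure D1:**
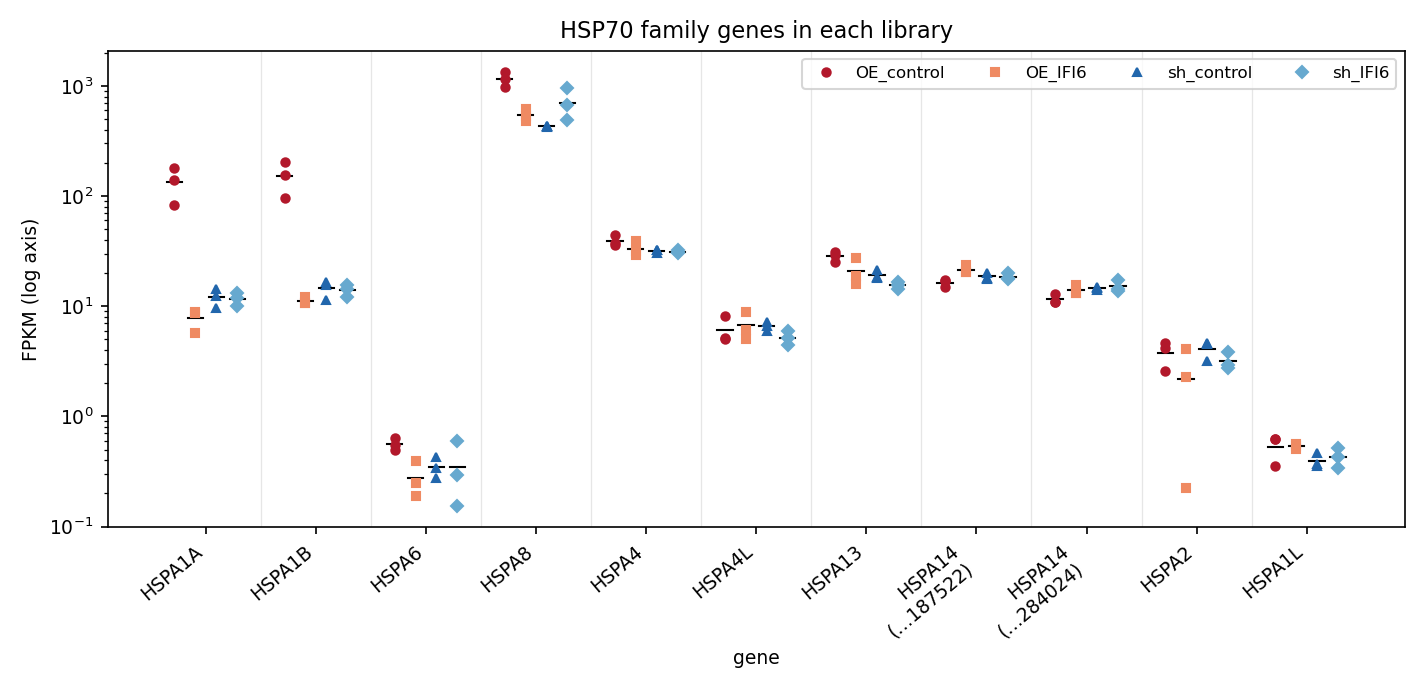
FPKM of each HSP70 gene in each library (points, log axis), with group means as bars and the last digits of the HSPA14 identifiers in brackets. HSPA1A and HSPA1B lie at 83.2 to 205.0 FPKM in OE_control and at or under 16.7 in the other 9 libraries.

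HSPA8 (chromosome 11, 123057489 to 123063230) was the most abundant member in every group. It had 1324, 972.4 and 1161 FPKM in OE_control and 619.4, 483.5 and 535.3 in OE_IFI6. It had 434.7, 419.8 and 436.4 in sh_control and 666.9, 490.5 and 956.9 in sh_IFI6. OE_control was above all 9 others, although sh_IFI6 library 3 came within reach of its lowest library, and sh_control was below all 9 others. Means were 1152 ± 176 in OE_control, 546.1 ± 68.6 in OE_IFI6, 430.3 ± 9.1 in sh_control and 704.7 ± 235.5 in sh_IFI6. The ratio of OE_control to OE_IFI6 was 2.11, and that of sh_IFI6 to sh_control was 1.64. The constitutive gene differed between the overexpression vectors in the same direction as the inducible pair, by a much smaller factor.

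That value of HSPA8 depends on which of its transcripts the fragments were assigned to, because a gene's FPKM in the deposited tables is the sum over its transcripts. Of 24 HSPA8 transcripts, 17 were in the mRNA table and 7 in the lncRNA table, and 7 of the 24 were listed at 0 in all 12 libraries. The short coding transcript HSPA8-212 (1112 bases) had 268.3 FPKM in OE_control library 1, 205.0 in OE_IFI6 library 1, 250.1 in sh_IFI6 library 1 and 423.2 in sh_IFI6 library 3. It was listed at 0 in the other 8 libraries. A short transcript turns the same fragments into a higher FPKM, so FPKM was multiplied by transcript length in kilobases and summed, which gives fragments scaled to library size alone. On that scale HSPA8 had 2218, 2010 and 2106 scaled fragments in OE_control and 926.0, 980.9 and 1015 in OE_IFI6. It had 875.3, 860.7 and 859.4 in sh_control and 988.8, 1023 and 1406 in sh_IFI6. OE_control now lay well clear of every other library. The ratio of sh_IFI6 to sh_control was 1.32 instead of 1.64, while that of OE_control to OE_IFI6 was 2.17 instead of 2.11.

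**Figure D2:**
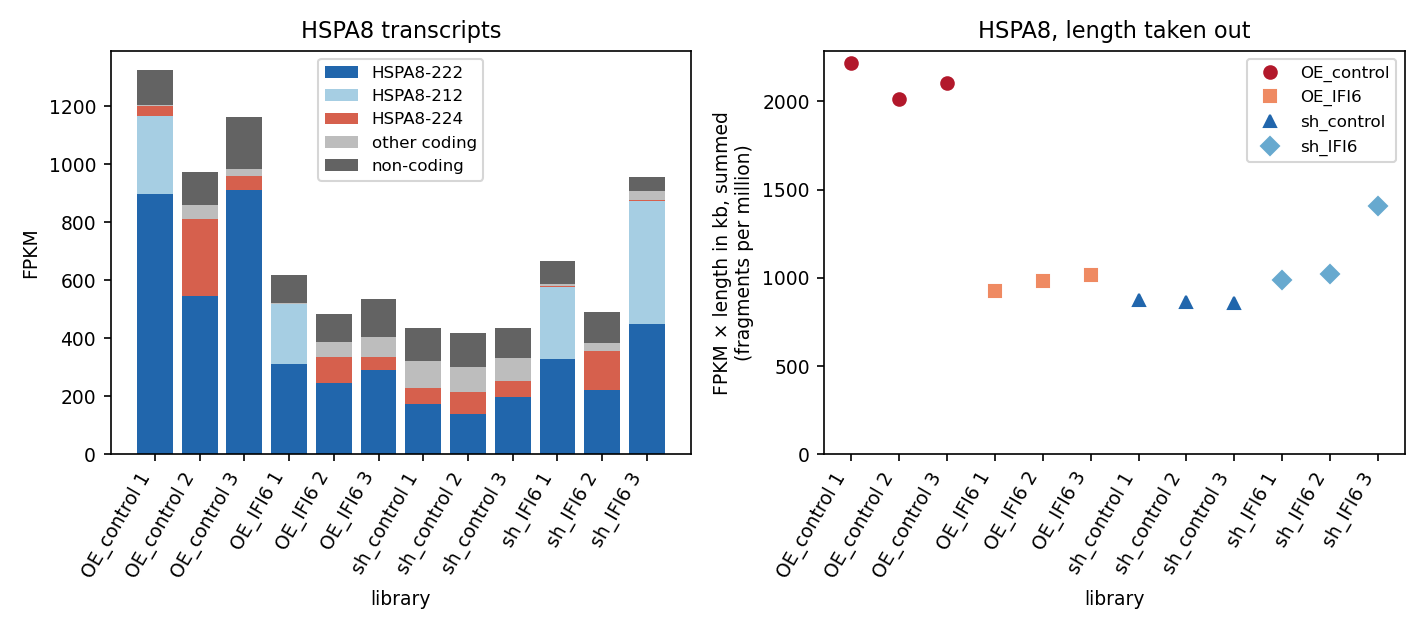
Left, HSPA8 FPKM per library, stacked by transcript; right, the same gene with transcript length taken out (FPKM times kilobases, summed). HSPA8-212 appears in 4 libraries, and on the right OE_control spans 2010 to 2218 against 859.4 to 1406 elsewhere.

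The make-up of HSPA8 was described by shares of the gene's FPKM. That total is the value the family was selected on, so the shares are not independent of the choice and are given as a description. The main coding transcript HSPA8-222 (1884 bases) made up 67.5% ± 11.02 (SD, n = 3) of the gene's FPKM in OE_control, 51.8% ± 2.17 in OE_IFI6, 39.3% ± 6.04 in sh_control and 47.2% ± 1.86 in sh_IFI6. The libraries did not overlap in any of the 4 comparisons of groups, those without OE_control included. Between sh_IFI6 and sh_control the nearest libraries stood at 45.5% and 45.1%. How many of all transcripts separate in this way was not counted. In limma across 19856 transcripts, fitted on the log2 ratio of a transcript to the rest of its gene, HSPA8-222 had a difference of -0.99 for OE_IFI6 against OE_control (SE 0.41, adjusted p = 0.671). The value was 1.73 (SE 0.41, adjusted p = 0.391) for OE_control against sh_control, so neither passed. None of the 6 member transcripts tested, 3 of HSPA8 and 3 of HSPA14, passed in any of the 5 comparisons, where 0.0403% of all transcripts passed for OE_IFI6 against OE_control and for OE_control against sh_control, 0.0151% for sh_IFI6 against sh_control, 0.0201% for OE_IFI6 against sh_control and 0.00504% for the difference of effects. Unadjusted p was under 0.05 for 1 of the 6, HSPA8-222, in OE_IFI6 against OE_control, in OE_control against sh_control and in the difference of effects, and for 0 in the other 2.

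The 7 non-coding HSPA8 transcripts held 9.18% to 15.2% of the gene's FPKM in OE_control, 15.8% to 24.6% in OE_IFI6, 24.1% to 27.9% in sh_control and 5.12% to 21.6% in sh_IFI6. OE_control was below OE_IFI6 and sh_control in every library, and overlapped sh_IFI6. How many of all genes separate in their non-coding share was not counted. In FPKM these transcripts stood at 121.6, 114.6 and 176.6 in OE_control against 113.6, 117.0 and 105.3 in sh_control, and those groups overlapped. The longest of the 7, of 2301 bases, had 1.591, 95.95 and 1.899 FPKM in OE_control and 2.443, 71.32 and 65.08 in OE_IFI6. It had 77.21, 87.19 and 63.35 in sh_control and 1.523, 86.93 and 2.102 in sh_IFI6. Its level thus varied widely within OE_control, OE_IFI6 and sh_IFI6. The part that assignment of fragments among transcripts had in the non-coding shares was not tested. SNORD14E, a small nucleolar RNA gene of the kind that is spliced out of HSPA8 introns and guides methylation of ribosomal RNA, lies at 123058077 to 123058161 within HSPA8. It had 7.07, 5.59 and 4.68 FPKM in OE_control against 12.78, 8.95 and 13.83 in OE_IFI6, and it was 8.95 or more in all 9 libraries outside OE_control. How many of all genes set OE_control apart in this way was not counted. In limma over 14006 annotated genes SNORD14E rose in OE_IFI6 against OE_control by a log2 difference of 0.92 (SE 0.19, adjusted p = 0.0142). In that fit 573 genes were called higher and 452 lower. SNORD14E was lower in OE_control than in sh_control by -0.84 (SE 0.19, adjusted p = 0.024), where 346 genes were called higher and 641 lower. SNORD14D, another such RNA in HSPA8, did not pass in the first (1.80, SE 0.85, adjusted p = 0.241) or the second comparison (-0.11, SE 0.85, adjusted p = 0.957), and SNORD14C did not pass the filter on low values. SNORD14E was named after its values were seen, and reads from the intron around an RNA of this size cannot be told apart from the RNA itself. No alternative fit was run for it.

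HSPA4 and HSPA4L are HSP110-type relatives that act as exchange factors for HSP70. HSPA4 (chromosome 5, 133052013 to 133106449) stood at 35.62, 44.37 and 37.64 FPKM in OE_control, 31.66, 39.13 and 28.87 in OE_IFI6, 30.72, 32.12 and 32.27 in sh_control and 30.82, 30.36 and 32.52 in sh_IFI6. OE_control overlapped OE_IFI6 and lay above both short hairpin groups. HSPA4L (chromosome 4, 127781821 to 127840733) had group means of 5.19 to 6.69 FPKM, and no group lay apart from the other 9 libraries.

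HSPA14 (chromosome 10), a ribosome-bound member, was the only one with OE_control below all 9 other libraries. Under ENSG00000187522 (14838306 to 14871741) it had 17.17, 17.1 and 14.85 FPKM in OE_control and 20.5, 23.74 and 20.29 in OE_IFI6. Its means were 18.7 ± 1.31 in sh_control and 18.6 ± 1.31 in sh_IFI6. OE_control was below all 9 others and OE_IFI6 above all 9 others, and how many of all genes do so was not counted. Under ENSG00000284024 (14838160 to 14847018) it had 10.85, 12.89 and 10.88 FPKM in OE_control, again below all 9 others, which ran from 13.2 to 17.26. The 2 identifiers overlap on the chromosome, and the division of shared reads between them is not stated. HSPA14-201 made up 94.0% to 95.2% of the first identifier by group means. Under the second, HSPA14-206 made up 50.7% to 55.2% and HSPA14-204 43.6% to 47.5% by group means, and single libraries ran from 46.8% to 62.1% and from 36.3% to 51.7%.

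HSPA13 (chromosome 21, 14371115 to 14383484), a microsomal member without the usual client-binding part, had 29.28, 31.2 and 25.07 FPKM in OE_control and 18.97, 27.58 and 15.92 in OE_IFI6. It had 21.36, 18.33 and 18.02 in sh_control and 15.69, 14.37 and 16.63 in sh_IFI6. OE_control was above both short hairpin groups, overlapped OE_IFI6 through library 2, and sh_IFI6 was below sh_control in every library. HSPA2 (chromosome 14, 64535905 to 64546173) had 2.56 to 4.61 FPKM in OE_control, 3.16 to 4.59 in sh_control and 2.73 to 3.81 in sh_IFI6. OE_IFI6 had 0.223, 2.29 and 4.07 FPKM, so its low mean of 2.19 rests mainly on library 1. HSPA1L (chromosome 6, 31809619 to 31815283), head to head with HSPA1A, had 0.34 to 0.621 FPKM over the 12 libraries. Every OE_IFI6 library (0.504 to 0.565) lay above every sh_control library (0.356 to 0.461), and OE_control overlapped all other groups. HSPA1L was near the floor of the data, below the minimum of 1 FPKM, and how many such genes separate was not counted. It did not take the shape of its neighbour, whose level in OE_control was 134.4 FPKM on average.

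In sh_control the order of mean levels was HSPA8, HSPA4, HSPA13, HSPA14 (ENSG00000187522), HSPA1B, HSPA14 (ENSG00000284024), HSPA1A, HSPA4L, HSPA2, HSPA1L and HSPA6. Library ranges overlapped between HSPA13 and the first HSPA14, among HSPA1B, the second HSPA14 and HSPA1A, and between HSPA1L and HSPA6. In OE_control the inducible pair moved to ranks 2 and 3, with HSPA1B at 152.3 ± 54.8 FPKM and HSPA1A at 134.4 ± 49.2, and the ranges of that pair overlapped. In OE_IFI6 the pair held ranks 6 and 7, and HSPA1A overlapped HSPA4L there. HSPA1A and HSPA1B together made up 11.1%, 21.3% and 23.5% of the summed family FPKM in OE_control. The range was 2.43% to 3.13% in OE_IFI6, 3.8% to 5.55% in sh_control and 2.08% to 4.37% in sh_IFI6. HSPA8 held 70.1% to 89.1% of the sum in every library. The sum itself was 1387 to 1646 FPKM in OE_control, 620.8 to 728.5 in OE_IFI6, 542.6 to 560.6 in sh_control and 602.2 to 1074 in sh_IFI6.

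**Figure D3:**
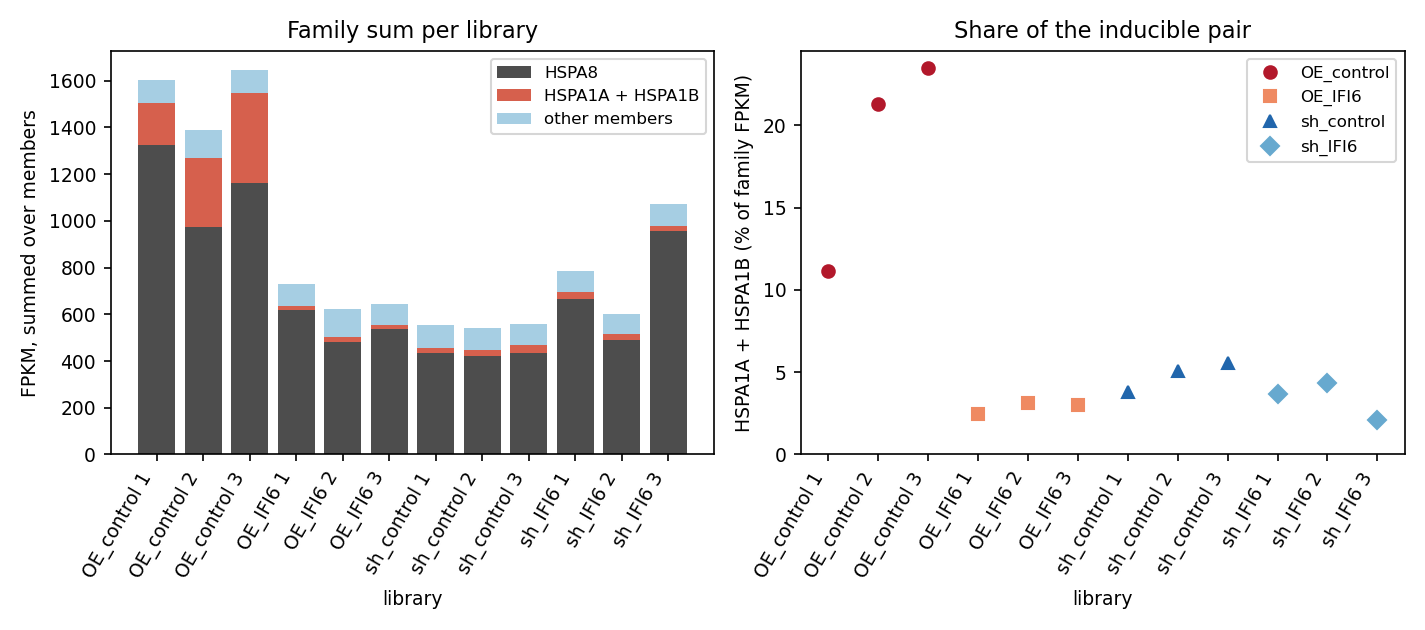
Left, summed FPKM of the family per library, split into HSPA8, HSPA1A plus HSPA1B, and the other members; right, the inducible pair as a percent of that sum. The pair reaches 11.1% to 23.5% in OE_control and stays at or under 5.55% in the other 9 libraries.

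Differences were fitted with limma on log2(FPKM + 1) over 10925 genes, and a gene was called at a Benjamini-Hochberg adjusted p under 0.05. This scale understates differences of genes near 1 FPKM. For OE_IFI6 against OE_control, 3 of the 9 members in the fit were called lower, where 7.66% of all genes were called, 3.56% lower and 4.1% higher. These were HSPA1A (log2 difference -3.90, SE 0.26), HSPA1B (-3.60, SE 0.23) and HSPA8 (-1.07, SE 0.20). The same 3 were those of the 9 whose libraries were all lower in OE_IFI6 (9.78% of all genes), and both HSPA14 entries were all higher (13.5% of all genes), by 0.37 (SE 0.11) and 0.26 (SE 0.12). HSPA2, HSPA13 and HSPA4 stood at -0.78 (SE 0.40), -0.47 (SE 0.17) and -0.24 (SE 0.12), and HSPA4L at 0.11 (SE 0.20). The median over the 9 was -0.47, against 0.05 over all genes. Since the family was selected with this contrast and the others known, nothing is read from these counts.

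For sh_IFI6 against sh_control, limma called 0 of the 9 members and 0% of all genes. Unadjusted p was under 0.05 for 1 of the 9, HSPA8 (log2 difference 0.66, SE 0.20), and for 5.15% of all genes. HSPA1A and HSPA1B differed by -0.03 (SE 0.26) and -0.04 (SE 0.23). HSPA8 was higher in every sh_IFI6 library (9.46% of all genes) and HSPA13 lower in every one (9.61% of all genes), at -0.29 (SE 0.17). The HSPA8 value was 0.41 without sh_IFI6 library 3 and 0.38 on summed fragments.

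For OE_control against sh_control, the 2 vector controls, 3 of 9 members were called higher, where 7.52% of all genes were called, 2.75% higher and 4.78% lower. They were HSPA1A at 3.32 (SE 0.26), HSPA1B at 3.25 (SE 0.23) and HSPA8 at 1.41 (SE 0.20). With HSPA4 (0.29, SE 0.12) and HSPA13 (0.54, SE 0.17), 5 of the 9 had every OE_control library above every sh_control library, as had 10.1% of all genes. Both HSPA14 entries were lower in every library (20.3% of all genes), by -0.18 (SE 0.11) and -0.31 (SE 0.12). This comparison shares the OE_control libraries with the first and the sh_control libraries with the second, so its values are not independent of theirs. It too was known when the family was selected, and nothing is read from its counts. With median-of-ratios scaling the split over all genes was 358 lower and 480 higher, against 522 and 300 without it.

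For OE_IFI6 against sh_control, limma called 0 of 9 members and 0.0183% of all genes, with unadjusted p under 0.05 for 2 of the 9 and 4.6% of all genes. Those 2 were HSPA1A, at -0.59 (SE 0.26), and HSPA2, at -0.89 (SE 0.40). Without OE_IFI6 library 1, HSPA2 stood at -0.31. HSPA1B stood at -0.35 (SE 0.23) and HSPA8 at 0.34 (SE 0.20). HSPA1A was lower in every OE_IFI6 library (6.54% of all genes), and HSPA8 and HSPA14 (ENSG00000187522) were higher in every one (3% of all genes). The overexpression effect minus the knockdown effect was called lower for HSPA1A, HSPA1B and HSPA8, 3 of 9, where 2.69% of all genes were called, 1.51% lower and 1.18% higher.

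**Figure D4:**
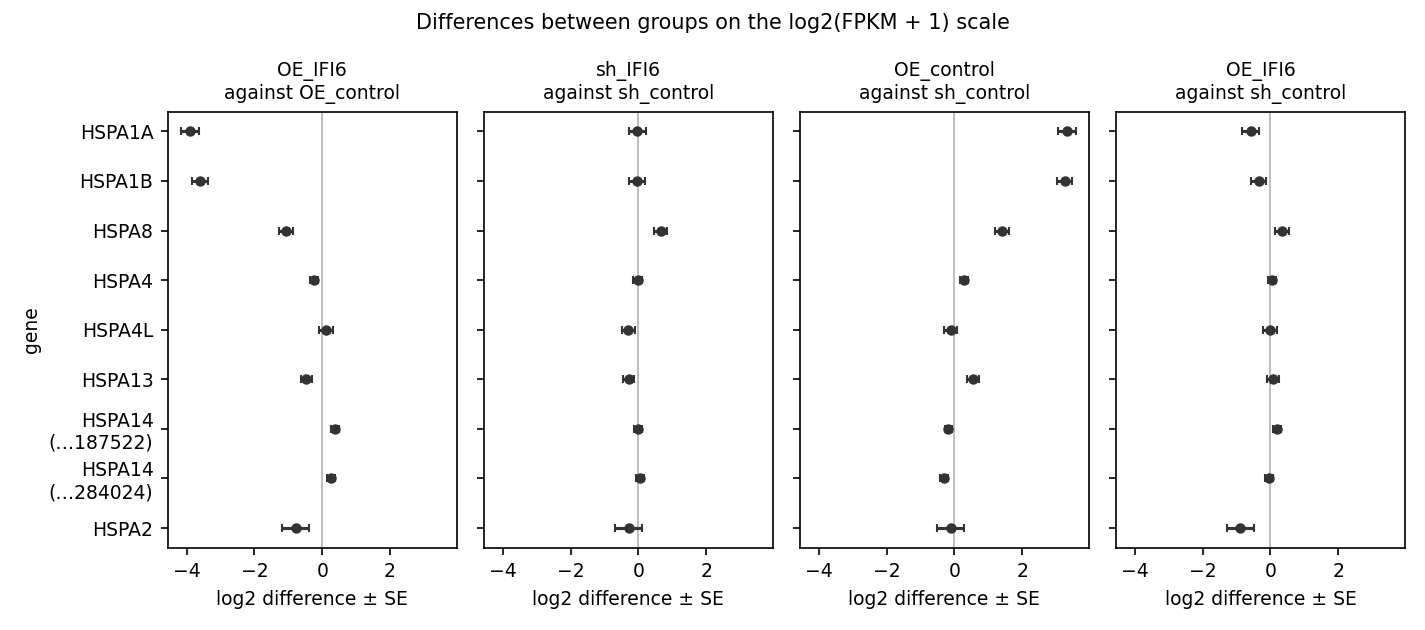
Log2 differences with their SE from limma for the 9 members in the fit, 1 panel per comparison. HSPA1A, HSPA1B and HSPA8 lie farthest from 0 in the panels that hold OE_control, at -3.90, -3.60 and -1.07 in the first. Farthest from 0 in the other panels are HSPA8 at 0.66 (sh_IFI6 against sh_control) and HSPA2 at -0.89 (OE_IFI6 against sh_control).

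The partners of HSP70 were taken from lists that were also drawn up with earlier results of these data known. Of 15 tested J-domain co-chaperones of the cytosol and nucleus, 4 fell and 0 rose in OE_IFI6 against OE_control, where 3.56% of all genes fell and 4.1% rose, with a list median of -0.40 against 0.05 over all genes. DNAJB1, the main J-domain partner of inducible HSP70, had 241.5, 285.3 and 288.6 FPKM in OE_control and 30.24, 30.88 and 33.43 in OE_IFI6, and fell by 3.07 on the log2 scale (SE 0.10, adjusted p = 1.29e-08). DNAJB4, a close relative, fell by 1.12 (SE 0.21, adjusted p = 0.00793). DNAJB2, which is best known from neurons, fell by 0.91 (SE 0.17, adjusted p = 0.00818). DNAJA1, an HSP40 of the cytosol, fell by 0.48 (SE 0.12, adjusted p = 0.0334), and its call was lost in 9 of 21 alternatives, 8 of which left out a library (OE_control 1, 2 or 3, OE_IFI6 1 or 3, sh_control 2 or 3, or sh_IFI6 1; adjusted p = 0.0514 to 0.108).

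Among 18 nucleotide exchange factors and other HSP70 partners, 3 fell and 1 rose in that comparison (3.56% and 4.1% of all genes), with a median of -0.16. HSPH1 (HSP110) had 21.17, 32.79 and 24.57 FPKM in OE_control and 9.39, 12.66 and 5.84 in OE_IFI6, and fell by 1.43 (SE 0.24, adjusted p = 0.00403). FKBP4, an HSP90 co-chaperone, fell by 0.56 (SE 0.11, adjusted p = 0.0106). BAG3, which links HSP70 to autophagy and is itself heat-inducible, fell by 0.90 (SE 0.23, adjusted p = 0.0363), and that call was lost in 11 of 21 alternatives. Leaving out OE_IFI6 library 2 gave BAG3 -0.63 (adjusted p = 0.0962), and any OE_control library, OE_IFI6 library 3, any sh_control library or sh_IFI6 library 2 also ended the call. BAG1, a constitutive exchange factor, went the other way, with 35.14, 31.29 and 37.95 FPKM in OE_control and 45.02, 59.3 and 57.63 in OE_IFI6, a log2 rise of 0.61 (SE 0.14, adjusted p = 0.0197). It was no longer called without OE_control library 2 or OE_IFI6 library 2 or 3 (adjusted p = 0.0587, 0.0712 and 0.0516).

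Of 20 HSF factors and other heat shock protein genes, 4 fell and 0 rose (3.56% and 4.1% of all genes), with a median of -0.13. The small heat shock protein HSPB1 had 511.4, 476.0 and 580.0 FPKM in OE_control and 153.8, 170.5 and 203.7 in OE_IFI6, and fell by 1.57 (SE 0.13, adjusted p = 3.75e-05). HSPD1, the mitochondrial HSP60, fell by 0.76 (SE 0.11, adjusted p = 0.00169). HSP90AB1 (0.63, SE 0.14) and TCP1 (0.52, SE 0.13), the constitutive HSP90 and a chaperonin subunit, fell by those amounts at adjusted p = 0.0203 and 0.0281. Leaving out 1 library ended the call of HSP90AB1 for OE_control 2 or 3 and OE_IFI6 1, and that of TCP1 for OE_control 1 or 2 and OE_IFI6 1 or 3. HSF1, the heat shock transcription factor, had 17.1 ± 0.714 FPKM in OE_control and 14.9 ± 2.55 in OE_IFI6 (log2 difference -0.19, SE 0.13, adjusted p = 0.409). Its RNA level is not a measure of its activity. In this comparison DNAJB1, HSPH1, HSPB1, HSPD1 and HSPA5 kept their calls in all 21 alternatives. Fitting only the libraries compared ended the calls of DNAJA1 (adjusted p = 0.181), BAG3 (0.152), DNAJB4 (0.0524), DNAJB2 (0.0803), FKBP4 (0.117), BAG1 (0.113), HSP90AB1 (0.125) and TCP1 (0.147), and quantile normalization those of HSP90AB1 (0.0581) and TCP1 (0.0884).

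Of 5 tested HSP70 and HSP110 relatives outside the 10 symbols, HSPH1 and HSPA5 fell (3.56% of all genes). HSPA5 (BiP), the HSP70 of the endoplasmic reticulum and a target of the unfolded protein response, had 177.6, 348.8 and 340.2 FPKM in OE_control and 74.19, 88.33 and 85.06 in OE_IFI6, a log2 difference of -1.74 (SE 0.22, adjusted p = 0.000994). HSPA9, the mitochondrial HSP70, stood at -0.14 (SE 0.25, adjusted p = 0.8). The knockdown comparison, in limma, called 0 genes in all 4 lists. Unadjusted p was under 0.05 for 1 of 15 J-domain genes, 0 of 18 partners, 2 of 20 heat shock protein genes and 1 of 5 relatives. The difference of effects was called lower for 2, 1, 4 and 1 genes of these lists, and higher for 0 in each, against 1.51% and 1.18% of all genes. Of these, DNAJB1, HSPB1 and HSPA5 kept the call in all 20 alternatives. It was lost in 1 for HSPD1, in 5 for DNAJB2, in 7 for FKBP4, in 12 for HSP90AB1 and in 16 for CCT3, and apart from HSPD1 each of these lost it on leaving out single libraries.

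Between the controls, OE_control against sh_control, the same lists gave 4 of 15 J-domain genes, 4 of 18 partners, 6 of 20 heat shock protein genes and 2 of 5 relatives that were higher (2.75% of all genes). One partner, BAG1, was lower (-0.77, SE 0.14, adjusted p = 0.00701), as were 4.78% of all genes. DNAJB1 differed by 3.06 (SE 0.10, adjusted p = 1.3e-08), HSPB1 by 1.43 (SE 0.13, adjusted p = 8.18e-05), HSPA5 by 1.67 (SE 0.22, adjusted p = 0.00127) and HSPH1 by 1.37 (SE 0.24, adjusted p = 0.00571). PTGES3, the HSP90 co-chaperone p23, was called at 1.22 (SE 0.33, adjusted p = 0.0429) and stood at 0.85 (adjusted p = 0.131) without OE_control library 1. Calls of DNAJA1, DNAJB1, DNAJB4, FKBP4, HSPH1, BAG1, HSPB1, HSPD1 and HSPA5 held in all 21 alternatives. Those of DNAJB2, AHSA1, PTGES3, CCT3, CCT4, HSP90AB1 and TCP1 were lost in 2 to 11, in each case also on leaving out at least 1 library of OE_control or sh_control. For OE_IFI6 against sh_control, limma gave 0 calls in all 4 lists, with unadjusted p under 0.05 for 1, 0, 3 and 0 of their genes. KRT17, the only cell type marker called in OE_IFI6 against OE_control, fell by 1.44 (SE 0.19, adjusted p = 0.00117), and its part in the results was not tested. Markers that averaged under 1 FPKM were not in the fit.

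**Figure D5:**
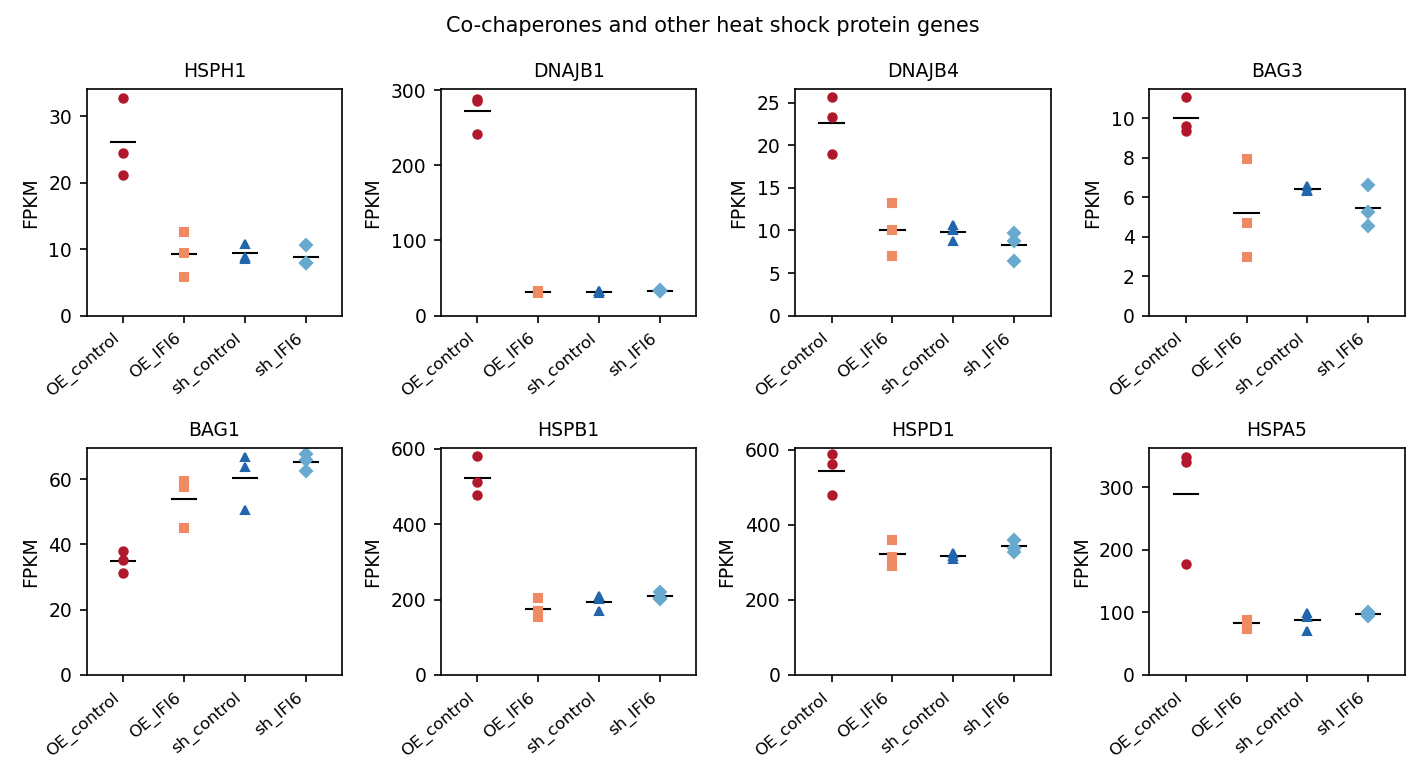
FPKM per library (points) and group mean (bars) of 8 co-chaperone and heat shock protein genes, linear axes from 0. OE_control is the high group in all panels but BAG1, where it is the low one at 31.3 to 38.0 FPKM.

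The genes most like HSPA1A were sought by the root mean square difference of log2(FPKM + 1) profiles, each centred on its mean over the 12 libraries. HSPA1B stood at 0.21. Outside the family the nearest were DNAJB1 at 0.39, GDF15 at 0.67, DDIT3 at 0.80, DUSP5 at 0.81 and OASL at 0.82. GDF15, a stress-induced cytokine, had group means of 16.6 FPKM in OE_control and 2.53 to 2.99 in the others. DDIT3 (CHOP), a transcription factor of the stress response, had 19.4 against 4.11 to 5.82.

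HSPA8 had another set of nearest genes, at 0.29 to 0.31. These were TMED7-TICAM2, JMJD6, NT5E, CSRNP1 and SLC2A3. JMJD6, a lysyl hydroxylase of the nucleus, had a mean of 49.9 FPKM in OE_control and 21.8 to 26.8 in the others. TMED7-TICAM2 is a read-through gene that shares its sequence with TMED7, so its reads are uncertain. HSPA1A and HSPA8 were 1.20 apart. Ordered by distance from HSPA1A, HSPA8 ranked 46 over all genes tested, and ordered by distance from HSPA8, HSPA1A ranked 10865. The spread of HSPA1A around its own mean was 1.57 and that of HSPA8 0.57. Profiles were not scaled to their spread, so these distances and ranks depend on its size as well as on the order of groups. The HSPA14 identifiers were at 1.69 and 1.70 from HSPA1A. All these profiles share the same 12 libraries, and each of the 10 genes named as nearest had its highest group mean in OE_control.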

How the data were processed

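Libraries of total RNA were made with Illumina protocols, per the labels. The deposited values are FPKM for genes and transcripts, and HISAT2, StringTie, Cuffdiff and edgeR are named without role per the submitters' processing notes. For the build, the annotation and the use of strand, the sources used here name nothing. Low values lay within 0.05 of a whole step for 30.2% to 34.6% of cases, so reads were not recovered, depth is unknown and no count test was run.

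limma 3.58.1 (R 4.3.3) fitted 1 group-means model over all 12 libraries (8 residual degrees of freedom, trended prior) to log2(FPKM + 1) of genes averaging 1 FPKM or more, two-sided, with Benjamini-Hochberg adjustment over all genes. Transcript usage was fitted as log2((transcript + 0.1)/(rest of gene + 0.1)) for shares of 5% to 95%. The scripts were tested on simulated data. Promoters are from RefSeq, and transcript lengths from GENCODE 29. Named genes were all members, the 5 most like HSPA1A and HSPA8, per list and comparison up to 4 called genes of smallest p, and HSPA5, HSPA9, HSPH1, HSF1, DNAJB1 and BAG3. KRT17, SNORD14E and the non-coding HSPA8 transcripts were chosen after their values were seen. The members and lists were chosen with earlier results of these data known. Alternatives were other pseudocounts, filters and scalings, the compared libraries alone, the replicate block, the table of all annotated genes, and fits without each library. Fragments summed over transcripts were added after the data were seen.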

Additional observations from a re-analysis of the deposited data

Results flagged for a closer look

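For 3 members the effect of the overexpression vector differed from that of the hairpin by limma's test of the difference (overexpression effect minus knockdown effect, adjusted p under 0.05). The log2 difference of effects was -3.87 (SE 0.37) for HSPA1A, -3.56 (SE 0.33) for HSPA1B and -1.73 (SE 0.29) for HSPA8, and -1.49 for HSPA8 on summed fragments. The group means behind them were 134.4 (OE_control), 7.75 (OE_IFI6), 12.1 (sh_control) and 11.7 FPKM (sh_IFI6) for HSPA1A, 152.3, 11.09, 14.53 and 14.04 FPKM for HSPA1B, and 1152, 546.1, 430.3 and 704.7 FPKM for HSPA8. These genes were selected with such values known, so the test adds no independent support. The values of HSPA1A and HSPA1B rest on the 3 OE_control libraries, which lay apart from the other 9 over all genes. That of HSPA8 rests on them in part. Its knockdown effect of 0.66 (SE 0.20) also entered, and without sh_IFI6 library 3 its difference of effects was -1.48.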

How the results depend on the processing

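Members called in OE_IFI6 against OE_control numbered 3 or 4 over all settings, members called between the controls 3 or 4, and those of the difference of effects 3. The knockdown comparison, OE_IFI6 against sh_control and transcript usage gave 0 members throughout. The added member for OE_IFI6 against OE_control was HSPA14 (ENSG00000187522), higher, with no filter and on summed fragments, and HSPA13, lower, without OE_IFI6 library 2. Between the controls it was HSPA13, higher, with median-of-ratios scaling or without OE_IFI6 library 2 or 3. In OE_IFI6 against OE_control, leaving out a library moved HSPA1A between -4.21 and -3.65, HSPA1B between -3.90 and -3.35 and HSPA8 between -1.19 and -0.97 on the log2 scale. Without OE_IFI6 library 1, HSPA2 stood at -0.20 instead of -0.78.

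Same-numbered libraries of the overexpression pair correlated in their deviations at 0.087, 0.254 and 0.124, and those of the hairpin pair at -0.043, -0.01 and -0.034, so the numbers were not taken to pair the libraries, although each overexpression library correlated best with its own number. With the replicate block, 3, 0, 3, 0 and 3 members were called in the 5 comparisons, as without it, and over all genes 802, 0, 776, 2 and 250.

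Over all genes, the number of calls depended on the setting. The members were selected on these same values, so the steadiness of their calls is no support. Fitting only the libraries compared gave 167 calls instead of 837 for OE_IFI6 against OE_control and 429 instead of 822 between the controls. Leaving out a library gave 505 to 860 and 321 to 934 calls, and 124 to 518 instead of 294 for the difference of effects. The lower and higher calls were 389 and 448 for OE_IFI6 against OE_control, and 517 and 427 with median-of-ratios scaling. Between the controls they were 522 and 300, and 330 and 378 with quantile normalization. The causes were not tested. Depth is unknown, which limits HSPA6 and HSPA1L most.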
